A study of Homo sapiens with 9 samples.

Results

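The Hippo pathway genes and the target genes of its transcription factors were followed across LC-2/ad cells and their ponatinib-resistant derivatives PR1 and PR2. The set held 39 genes, found by symbol in the 24069 rows of the deposited table, and each had a row of its own. There were 23 pathway components and 16 targets. LC-2/ad is a cell line from a human lung adenocarcinoma with a fusion of CCDC6 and RET, and ponatinib is a kinase inhibitor that acts on RET among other kinases. RNA was sequenced from 9 libraries. The parental LC-2/ad group, PR1 and PR2 had 3 each, lettered A, B and C. PR1 and PR2 were grown with 200 nM ponatinib, whereas the labels name no drug for the parental cells, so resistance and drug exposure cannot be told apart against them. Whether each derivative is 1 clone is not given in the sources used here. Nor is it given whether the letters mark independent cultures. The p-values therefore describe the spread of these libraries only, which may be technical.

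The Hippo pathway is a kinase cascade that limits growth. The kinases STK3 and STK4, with the scaffold SAV1, activate LATS1 and LATS2, which work with the adaptors MOB1A and MOB1B and phosphorylate the coactivators YAP1 and WWTR1 (also called TAZ), so that these are kept in the cytoplasm or degraded. Unphosphorylated YAP1 and WWTR1 enter the nucleus, bind the TEAD DNA-binding proteins and switch on genes of adhesion, matrix and survival. Since this control acts on the proteins, RNA levels of the components do not measure the activity of the cascade.

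Values are FPKM, that is fragments scaled to transcript length and library size, so levels may be compared between genes. Differences were tested with limma on log2(FPKM + 1) over the 12011 rows that reached 1 FPKM in at least 3 libraries, a changed gene has a Benjamini-Hochberg adjusted p under 0.05, and log2 differences are on that scale, on which changes of low genes come out too small. An error after a mean FPKM is an SD over 3 libraries, and one after a log2 difference is a standard error (SE). Of the 39 genes 37 were tested. TEAD4 and FRMD6 were too low, and VGLL3 was tested only because of its level in PR2, so that it had to differ there. Library sizes differed little, with relative depths of 0.747 to 1 read from the steps between low values, and log2 values correlated across genes at 0.961 to 0.985 within groups and at 0.883 to 0.949 between them. All 8 epithelial and lung adenocarcinoma markers were present in every group, with summed levels of 4933 to 8875 FPKM. Of these, NKX2-1 and NAPSA rose in PR1 (log2 differences of 0.90 and 1.85, limma adjusted p = 0.019 and 0.0094). In PR2 KRT7 rose and KRT18 fell (1.14 and −0.82, limma adjusted p = 0.0056 and 0.035). EPCAM, CDH1, KRT8 and KRT19 passed the threshold in neither derivative. The sums of 10 fibroblast markers lay between 5.80 and 11.6 FPKM in parental cells, 6.33 and 9.04 in PR1 and 10.1 and 12.1 in PR2, and COL1A1 was the highest of them in each group, at 10.04 FPKM at most. The 5 endothelial markers summed to 2.62 to 3.75 FPKM in parental cells, 2.23 to 7.88 in PR1 and 0.632 to 3.59 in PR2. The 5 blood cell markers summed to 3.57 to 9.21, 1.17 to 1.77 and 0.858 to 1.44 FPKM, with the monocyte marker CD14 the highest of them and lower in PR1 and PR2 than in parental cells (log2 differences of −1.55 and −1.86, limma adjusted p = 0.0033 and 0.00071). Their part in the results was not tested. In bulk RNA, fewer cells expressing a gene and less of its RNA per cell cannot be told apart.

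Most of the changes were rises. In PR1, 16 of the 37 genes tested rose against parental cells and 1 fell, where 15.5% of all rows tested changed, 7.56% higher and 7.98% lower. In PR2, 21 rose and 1 fell, against 23.4% of all rows changed, 13.6% higher and 9.83% lower. Without VGLL3, 20 of 36 rose in PR2. The median log2 difference over the tested genes of the set was 0.59 in PR1 and 0.83 in PR2, and over all rows tested it was 0.05 and 0.03. Both comparisons use the same 3 parental libraries. The groups did not overlap for 20 higher and 2 lower genes in PR1 and for 25 higher and 1 lower in PR2. Over all rows tested 16.6% and 15% were apart in these directions in PR1, 31.6% in all, and 22.3% and 17.6% in PR2, 39.9% in all. Of the targets 9 rose in PR1 and 12 in PR2 with no fall, of the components 7 and 9 with 1 fall in each. The PR1 count of 17 was 10 without parental B, 11 without parental C and 10 without PR1 C.

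The targets are genes known to respond to YAP1 and TEAD, and they range from secreted and membrane proteins to kinases and regulators of RNA and transcription. CYR61 and CTGF are sister genes of secreted matricellular proteins and the most used readouts of YAP1 activity. CYR61 stood at 35.8, 11.4 and 28.0 FPKM in parental A, B and C, at 116, 104 and 171 in PR1 and at 105, 127 and 222 in PR2. Every derivative library was above every parental one, with log2 differences of 2.44 ± 0.41 for PR1 and 2.61 ± 0.41 for PR2 (limma adjusted p = 0.0033 and 0.0013). CTGF was at 29.5, 4.68 and 27.4 FPKM in parental cells, at 88.9, 69.95 and 234 in PR1, and at 6.80, 13.9 and 35.1 in PR2. The PR2 libraries overlapped the parental ones while those of PR1 lay above both. CTGF rose in PR1 by 2.75 ± 0.73 (limma adjusted p = 0.031), and the PR2 difference from parental cells was −0.08 ± 0.73 (limma adjusted p = 0.95). The CTGF call in PR1 ended with any of parental B, PR1 A and PR1 C left out and with no filter on low rows (limma adjusted p of 0.058 to 0.12).

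ANKRD1, a nuclear ankyrin repeat cofactor, had the largest log2 difference of the set against parental cells in both derivatives. It was at 11.7, 2.88 and 2.93 FPKM in parental cells, at 51.0, 41.8 and 31.7 in PR1 and at 62.6, 45.1 and 52.1 in PR2, so parental A was the highest parental library and still below every other. The log2 differences were 2.85 ± 0.41 and 3.21 ± 0.41 (limma adjusted p = 0.0015 and 0.0004). CRIM1, a membrane protein that binds BMP ligands, rose in steps. Its levels were 8.52, 5.27 and 6.07 FPKM in parental cells, 17.0, 16.2 and 20.05 in PR1 and 45.9, 32.0 and 43.4 in PR2, with no overlap between any groups. CRIM1 rose by 1.32 ± 0.20 going to PR1 and 2.45 ± 0.20 to PR2 (limma adjusted p = 0.0020 and 3.0e-05).

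NT5E, the surface enzyme that makes adenosine from AMP, was highest in PR1. Its levels were 26.0, 21.3 and 33.8 FPKM in parental cells, 126, 153 and 125 in PR1 and 49.6, 42.5 and 60.6 in PR2, again 3 separate groups. NT5E rose by 2.29 ± 0.20 for PR1 and 0.90 ± 0.20 for PR2 (limma adjusted p = 8.5e-05 and 0.0097). PTPN14, a phosphatase that itself binds and restrains YAP1, went from 1.80, 0.962 and 1.27 FPKM to 5.06, 4.76 and 6.22 in PR1, and in PR2 it stood at 6.68, 4.43 and 6.04. It rose by 1.44 ± 0.19 and 1.52 ± 0.19 (limma adjusted p = 0.0009 and 0.00036). RBMS3, an RNA-binding protein gene, went from 1.41 ± 0.36 FPKM to 3.74 ± 0.31 for PR1 and 3.74 ± 0.28 for PR2, a rise by 0.98 in each (limma adjusted p = 0.0018 and 0.00098).

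MYOF, for the membrane repair protein myoferlin, and ASAP1, for a regulator of ARF GTPases, also rose in both. MYOF averaged 38.5 ± 13.7 FPKM (SD, n = 3) in the parental group, 77.8 ± 12.5 in PR1 and 79.6 ± 10.4 for PR2 (differences of 1.04 and 1.08, limma adjusted p = 0.016 and 0.0096). ASAP1 was at 4.82 ± 0.82, 8.35 ± 0.75 and 11.4 ± 1.60 FPKM (log2 0.69 and 1.09, limma adjusted p = 0.017 and 0.0010). In PR1 the ASAP1 call was lost without parental B, parental C or PR1 C, and the MYOF call without these or PR1 A (limma adjusted p of 0.050 to 0.067).

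In PR2 4 targets rose that missed the threshold in PR1. CCDC80, which encodes a secreted matrix protein, was at 9.02, 5.25 and 4.57 FPKM in parental cells, 8.61, 7.47 and 6.67 in PR1 and 13.7, 31.2 and 28.2 in PR2. PR1 overlapped the parental libraries and PR2 did not, with log2 differences of 0.28 ± 0.31 and 1.77 ± 0.31 (limma adjusted p = 0.60 and 0.0025). NUAK2, an AMPK-related kinase gene, was at 2.53, 2.85 and 3.19 FPKM, at 3.83, 4.27 and 4.96 in PR1 and at 7.41, 7.65 and 9.87 in PR2 (differences 0.47 and 1.27, limma adjusted p = 0.068 and 0.00035). Its 3 groups did not overlap. DOCK5, an activator of RAC, and GADD45B, a stress response gene, differed by 0.45 and 0.51 in PR1 (limma adjusted p = 0.079 and 0.082). In PR2 they rose by 1.01 and 0.81 (limma adjusted p = 0.0012 and 0.0088). For both genes every PR1 library was above every parental one. The GADD45B difference of PR2 from PR1 was 0.30 ± 0.18 and missed the threshold (limma adjusted p = 0.27). With the letter as a replicate block, DOCK5 and NUAK2 passed in PR1 as well (limma adjusted p = 0.042 and 0.015).

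Another 3 targets passed in neither derivative. ARHGEF17, which activates RHOA, was at 7.17, 9.63 and 8.76 FPKM in parental cells, 10.2, 17.2 and 15.4 in PR1 and 11.0, 13.3 and 12.9 in PR2, above parental cells in every derivative library. Its log2 differences were 0.66 ± 0.20 and 0.50 ± 0.20 (limma adjusted p = 0.0504 and 0.10), and the first passed with the replicate block, without PR1 A and with the A libraries left out (limma adjusted p = 0.0064, 0.013 and 0.015). The second passed without PR1 A (limma adjusted p = 0.045). F3, the tissue factor gene that starts coagulation, had the highest parental level of the targets, at 165, 71.6 and 84.8 FPKM, against 157, 120 and 112 in PR1 and 107, 105 and 115 in PR2. Parental A stood far above parental B and C, and without it the F3 difference of PR1 was past the threshold (limma adjusted p = 0.033). FJX1, related to the fly gene four-jointed, varied widely among replicates, from 9.88 to 21.2 FPKM in parental cells, 14.4 to 30.9 in PR1 and 12.3 to 32.6 in PR2 (log2 0.59 ± 0.39 and 0.42 ± 0.39, limma adjusted p = 0.35 and 0.48).

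**Figure D1:**
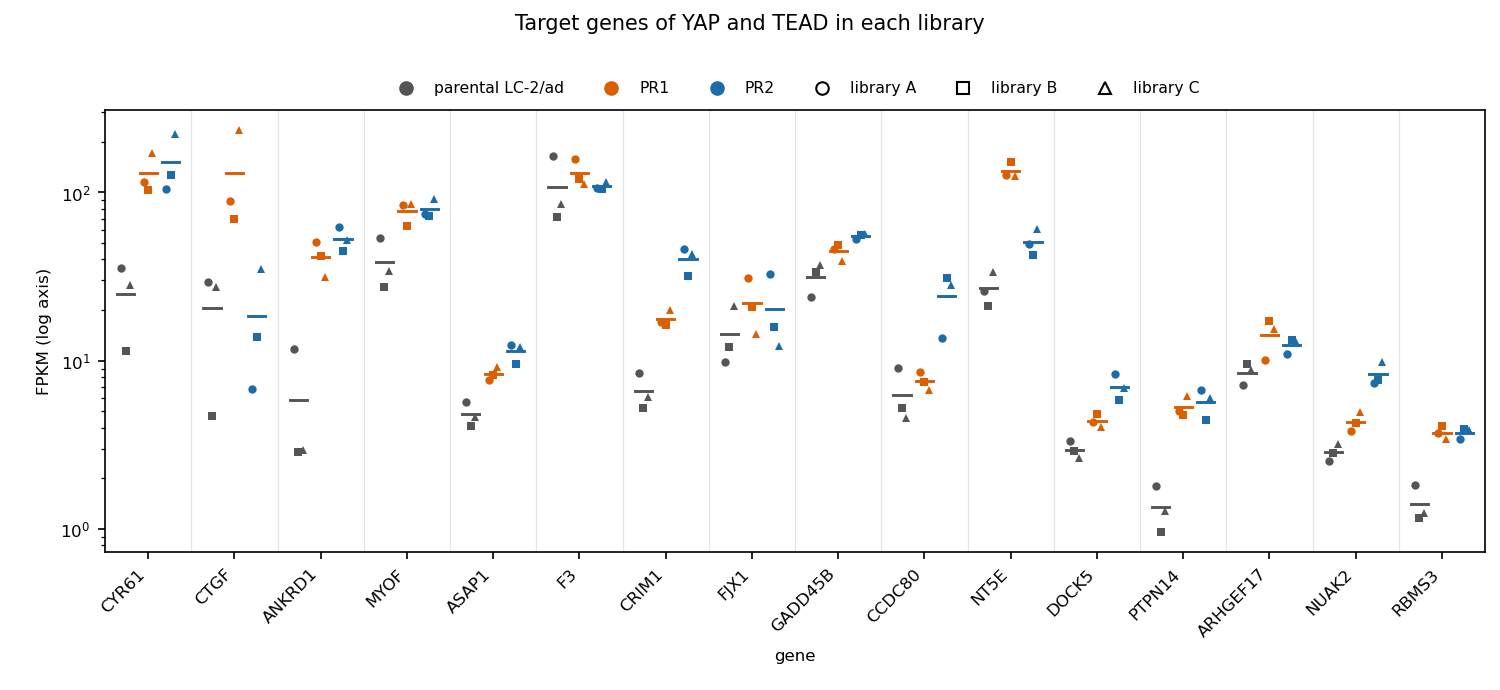
FPKM (log axis) of the 16 target genes, with 1 point per library, colours for the groups, symbols for the letters and bars for the group means. CYR61 and ANKRD1 lie higher in every PR1 and PR2 library than in any parental one, and CTGF is highest in PR1, at 69.95 to 234 FPKM.

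The promoters of targets that moved differently were read from RefSeq (build GRCh38.p14, while the authors' notes name GRCh37 and hg19). They are shown because CTGF, ANKRD1 and NUAK2 had 2 or more copies of the TEAD element GGAATG, and AMOTL2, with 1 copy, is a component that is also a known target. Each run covers 250 bases before to 50 bases after the start, 5′ to 3′ on the gene's strand, with GGAATG or its reverse complement CATTCC in capitals.
CTGF (now CCN2), chr6:131951323-131951622, minus strand: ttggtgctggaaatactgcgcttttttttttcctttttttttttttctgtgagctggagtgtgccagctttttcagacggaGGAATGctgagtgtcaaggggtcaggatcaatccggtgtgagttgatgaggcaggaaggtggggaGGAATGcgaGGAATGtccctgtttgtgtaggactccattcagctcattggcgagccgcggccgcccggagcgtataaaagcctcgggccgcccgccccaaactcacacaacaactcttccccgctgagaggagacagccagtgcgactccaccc
ANKRD1, chr10:90921038-90921337, minus strand: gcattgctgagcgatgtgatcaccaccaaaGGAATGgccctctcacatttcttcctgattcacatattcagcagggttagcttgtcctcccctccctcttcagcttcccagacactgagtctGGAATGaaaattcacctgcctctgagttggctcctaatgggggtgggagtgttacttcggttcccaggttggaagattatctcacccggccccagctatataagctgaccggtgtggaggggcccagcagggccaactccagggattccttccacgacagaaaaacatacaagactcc
NUAK2, chr1:205321696-205321995, minus strand: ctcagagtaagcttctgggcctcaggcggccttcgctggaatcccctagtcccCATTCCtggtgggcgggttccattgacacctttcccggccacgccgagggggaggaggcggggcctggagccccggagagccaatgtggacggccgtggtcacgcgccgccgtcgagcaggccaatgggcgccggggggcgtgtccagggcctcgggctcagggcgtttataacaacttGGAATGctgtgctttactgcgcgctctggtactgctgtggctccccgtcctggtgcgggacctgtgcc
AMOTL2, chr3:134374398-134374697, minus strand: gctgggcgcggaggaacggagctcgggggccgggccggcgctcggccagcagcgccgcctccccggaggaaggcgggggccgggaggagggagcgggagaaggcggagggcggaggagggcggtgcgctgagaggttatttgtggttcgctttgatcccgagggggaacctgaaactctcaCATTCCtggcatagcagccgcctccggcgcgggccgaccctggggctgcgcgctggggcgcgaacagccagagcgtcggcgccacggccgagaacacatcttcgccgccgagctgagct
In CTGF the element begins 169, 104 and 95 bases before the start, in ANKRD1 220 and 128, in NUAK2 197 and 18, and in AMOTL2 69. It was searched on both strands. RefSeq promoters matched 31 of the 39 genes, with 42 promoters in all, and 9 of those 31 genes had the element in 1 promoter each, the other five being YAP1, VGLL1, LATS2, AJUBA and PTPN14. That is 21.4% of the 42 promoters, and 14% of all 35116 promoters of this length held it. The AP-1 element TGACTCA was found in 1 gene of the set, F3, and in 4.95% of all promoters. CYR61, CRIM1, ASAP1, DOCK5, ARHGEF17, TEAD1, TEAD4 and STK3 had no entry. A match of letters is a description and no evidence of binding.

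Of the regulators of the kinases and of YAP1, 4 rose and 1 fell in PR1 and 4 rose in PR2, of 6 tested. Of all rows tested 15.5% changed in PR1 and 23.4% in PR2. The angiomotins AMOT, AMOTL1 and AMOTL2 hold YAP1 at cell junctions and actin fibres, and AMOTL2 is also a known YAP1 target. AMOT was at 1.85, 0.867 and 1.03 FPKM in parental cells, 5.09, 7.19 and 10.4 in PR1 and 3.23, 4.50 and 4.06 in PR2. It was highest in PR1, with rises of 1.91 ± 0.24 and 1.15 ± 0.24 (limma adjusted p = 0.00083 and 0.0076). AMOTL2 was at 36.1, 26.9 and 48.8 FPKM, at 41.2, 53.9 and 53.3 in PR1 and at 89.7, 123 and 131 in PR2. PR1 overlapped parental cells and PR2 stood above all other libraries (0.43 ± 0.23 and 1.61 ± 0.23, limma adjusted p = 0.26 and 0.00091). AMOTL1 followed the same order, with 6.22 ± 1.87 FPKM in parental cells, 10.5 ± 1.90 in PR1, then 17.5 ± 1.05 in PR2 (0.69 and 1.39, limma adjusted p = 0.044 and 0.00093).

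AJUBA, a LIM protein that binds and restrains LATS kinases, was at 17.5, 12.9 and 26.9 FPKM in parental cells, 39.0, 49.98 and 45.6 in PR1 and 52.8, 45.7 and 46.6 in PR2. All 6 derivative libraries exceeded the parental ones, by 1.25 ± 0.23 and 1.36 ± 0.23 (limma adjusted p = 0.0058 and 0.0023). WWC1, also called KIBRA, an upstream activator of LATS kinases, was the one gene of the set that fell in PR1. It stood at 30.8, 23.9 and 30.4 FPKM in parental cells, 17.3, 12.5 and 13.2 in PR1 and 36.6, 28.5 and 31.8 in PR2. The PR1 libraries were below all others, where their log2 difference was −0.94 ± 0.17 (limma adjusted p = 0.0058), while PR2 overlapped parental cells (0.18 ± 0.17, limma adjusted p = 0.50). NF2, the tumour suppressor merlin that brings LATS kinases to the membrane, rose from 15.8 ± 0.94 to 24.8 ± 4.70 FPKM in PR1 (0.61 ± 0.18, limma adjusted p = 0.045). In PR2 NF2 stood at 20.4 ± 3.94 FPKM (0.33 ± 0.18, limma adjusted p = 0.21). Every derivative library was above the parental ones for NF2. The FERM-domain gene FRMD6 stayed at or under 0.443 FPKM in all libraries.

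In PR1 the calls for NF2 and AMOTL1 were weak. The NF2 call was lost without any 1 of the 6 libraries compared, without PR2 B or PR2 C, with no filter on low rows, and in the fit of only PR1 and parental cells (limma adjusted p of 0.052 to 0.12). The AMOTL1 call was lost without parental B, parental C, PR1 A, PR1 C, PR2 B or PR2 C and under the same pair of other settings (limma adjusted p of 0.064 to 0.15).

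In the kinase core 2 of 7 genes rose in PR1 and 3 in PR2, and none fell. Of all rows tested 7.56% rose in PR1 and 13.6% in PR2, and 7 genes are too few to set firmly against these shares. LATS2, a kinase that YAP1 is known to induce as feedback, was at 4.17, 2.80 and 3.81 FPKM in parental cells, 5.07, 6.32 and 7.14 in PR1 and 6.18, 6.88 and 8.39 in PR2. It was above parental cells in every derivative library (0.65 ± 0.18 and 0.83 ± 0.18, limma adjusted p = 0.036 and 0.0082). Its close relative LATS1 overlapped in all groups, at 3.56 to 5.94 FPKM in parental cells, 3.53 to 6.23 in PR1, then 4.48 to 6.40 in PR2 (limma adjusted p = 0.79 and 0.66). The scaffold SAV1 was at 13.9, 12.2 and 14.3 FPKM in parental cells, 21.5, 26.1 and 25.5 in PR1 and 14.6, 18.4 and 19.4 in PR2. No groups overlapped, with PR1 the highest and parental cells the lowest. The SAV1 rise against parental cells passed in PR1 (0.81 ± 0.15, limma adjusted p = 0.0068) but not in PR2 (0.34 ± 0.15, limma adjusted p = 0.14).

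MOB1B was at 5.47, 3.69 and 4.02 FPKM in parental cells, 4.68, 5.31 and 6.28 in PR1 and 8.58, 8.37 and 10.3 in PR2. PR2 lay above both other groups, with a rise of 0.91 ± 0.17 (limma adjusted p = 0.0038), and the PR1 difference was 0.26 ± 0.17 (limma adjusted p = 0.35). Its paralog MOB1A, between which and MOB1B the quantification may split shared reads, was more abundant and overlapped, at 24.5 ± 6.93, 30.6 ± 6.46 and 29.9 ± 3.61 FPKM. Of the upstream kinases, STK4 rose in PR2 from 3.76 ± 0.74 to 6.20 ± 0.93 FPKM (0.60 ± 0.16, limma adjusted p = 0.025). STK3, at 13.0 ± 2.06, 13.5 ± 2.42 and 15.9 ± 1.13 FPKM, passed in neither derivative (limma adjusted p = 0.89 and 0.27).

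The LATS2 call in PR1 was lost without parental B, parental C, PR1 B, PR1 C or PR2 B, with no filter on low rows and in the fit of only PR1 and parental cells (limma adjusted p of 0.057 to 0.13). The STK4 call in PR2 was lost without parental B, PR2 A, PR2 C or the A libraries and in the fit of only PR2 and parental cells (limma adjusted p of 0.050 to 0.088).

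Of the coactivators, YAP1 passed the threshold in PR1 and WWTR1 in PR2. YAP1 was at 49.7, 29.4 and 38.9 FPKM in parental cells, 58.7, 57.1 and 79.4 in PR1 and 58.5, 56.2 and 63.6 in PR2. All derivative libraries were above the parental ones, with a rise in PR1 (0.73 ± 0.21, limma adjusted p = 0.039) and a difference of 0.61 ± 0.21 in PR2 that missed the threshold (limma adjusted p = 0.055). WWTR1 was at 20.4, 17.0 and 15.1 FPKM in parental cells, 14.1, 14.1 and 16.5 in PR1 and 11.4, 11.0 and 13.0 in PR2. The PR2 libraries were the lowest, with a log2 difference of −0.53 ± 0.15 that passed (limma adjusted p = 0.033), while PR1 overlapped parental cells (−0.21 ± 0.15, limma adjusted p = 0.40). The ratio of YAP1 to WWTR1 FPKM within a library was 1.73 to 2.57 in parental cells, 4.04 to 4.81 in PR1 and 4.89 to 5.14 in PR2, and the groups did not overlap. These ratios were chosen after the values were seen and are a description.

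Both coactivator calls were weak. The YAP1 call in PR1 was lost without parental B, parental C, any 1 PR1 library, PR2 B or PR2 C, with no filter on low rows and in the fit of only PR1 and parental cells (limma adjusted p of 0.052 to 0.14). In PR2 YAP1 passed without parental A, with the A libraries left out and after quantile normalization (limma adjusted p = 0.020, 0.030 and 0.049). The WWTR1 call in PR2 was lost without any 1 of parental A, parental B, PR2 A, PR2 B and PR2 C, with the A libraries left out and in the fit of only PR2 and parental cells (limma adjusted p of 0.056 to 0.13).

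The TEAD proteins bring the coactivators to DNA, and the vestigial-like VGLL proteins bind TEAD in their place. None of the 6 tested TEAD and VGLL genes changed in PR1, and TEAD1 and VGLL3 rose in PR2, where VGLL3 had to differ. Of all rows tested 15.5% changed in PR1 and 23.4% in PR2, so these few genes are near those shares. TEAD1 was at 15.3, 7.80 and 12.7 FPKM in parental cells, 17.4, 15.1 and 22.8 in PR1 and 31.3, 17.5 and 24.7 in PR2. Parental A overlapped PR1, and PR2 was above the parental range (0.99 ± 0.27, limma adjusted p = 0.025). The TEAD1 difference of 0.62 ± 0.27 in PR1 missed the threshold (limma adjusted p = 0.16) and passed it with the replicate block (limma adjusted p = 0.026). In PR2 leaving out parental B or C, or PR2 A or C, ended the call (limma adjusted p of 0.051 to 0.090).

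TEAD3 and TEAD2 overlapped between PR2 and parental cells. TEAD3 was at 19.1 ± 2.51 FPKM in parental cells, 14.5 ± 1.32 in PR1, then 18.8 ± 3.38 in PR2 (limma adjusted p = 0.18 and 0.92). Its PR1 libraries lay below all parental ones. TEAD2 followed the letters, with 8.17, 13.1 and 6.99 FPKM in parental A, B and C, 6.90, 12.1 and 5.81 in PR1 and 3.85, 20.4 and 13.7 in PR2, so the B library was the highest of each group. TEAD4 was at or under 0.993 FPKM in all libraries. As a share of the summed FPKM of TEAD1 to TEAD4, TEAD1 made up 18.1% to 36.4% in parental cells, 34.7% to 52.5% in PR1 and 30.0% to 61.4% in PR2, and the groups overlapped. The sum was 37.0 to 43.1 FPKM in parental cells, 38.7 to 43.5 in PR1 and 50.9 to 60.3 in PR2.

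VGLL3 was seen almost only in PR2. It stood at 0.684, 0.202 and 0.208 FPKM in parental cells, 0.294, 0.380 and 0.265 in PR1 and 2.13, 3.41 and 5.07 in PR2. The log2 difference of PR2 from parental cells was 1.70 ± 0.23 (limma adjusted p = 0.00061) and that of PR1 was −0.04 ± 0.23 (limma adjusted p = 0.93). VGLL3 passed the filter only through PR2, so it had to differ there, and the first p-value is no support for the rise. VGLL1 was the most abundant of the family but spread widely, at 25.6, 22.5 and 19.0 FPKM in parental cells, 17.0, 37.7 and 23.4 in PR1 and 15.0, 43.6 and 45.2 in PR2. The A library was the lowest in PR1 and PR2 and the highest in parental cells, and the VGLL1 difference of PR2 passed without PR2 A or with the A libraries left out (limma adjusted p = 0.037 and 0.014) but not with them (0.47 ± 0.40, limma adjusted p = 0.45). VGLL4, which competes with YAP1 for TEAD, was at 19.7 ± 1.88, 19.3 ± 2.29 and 19.0 ± 5.32 FPKM (limma adjusted p = 0.93 and 0.80).

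**Figure D2:**
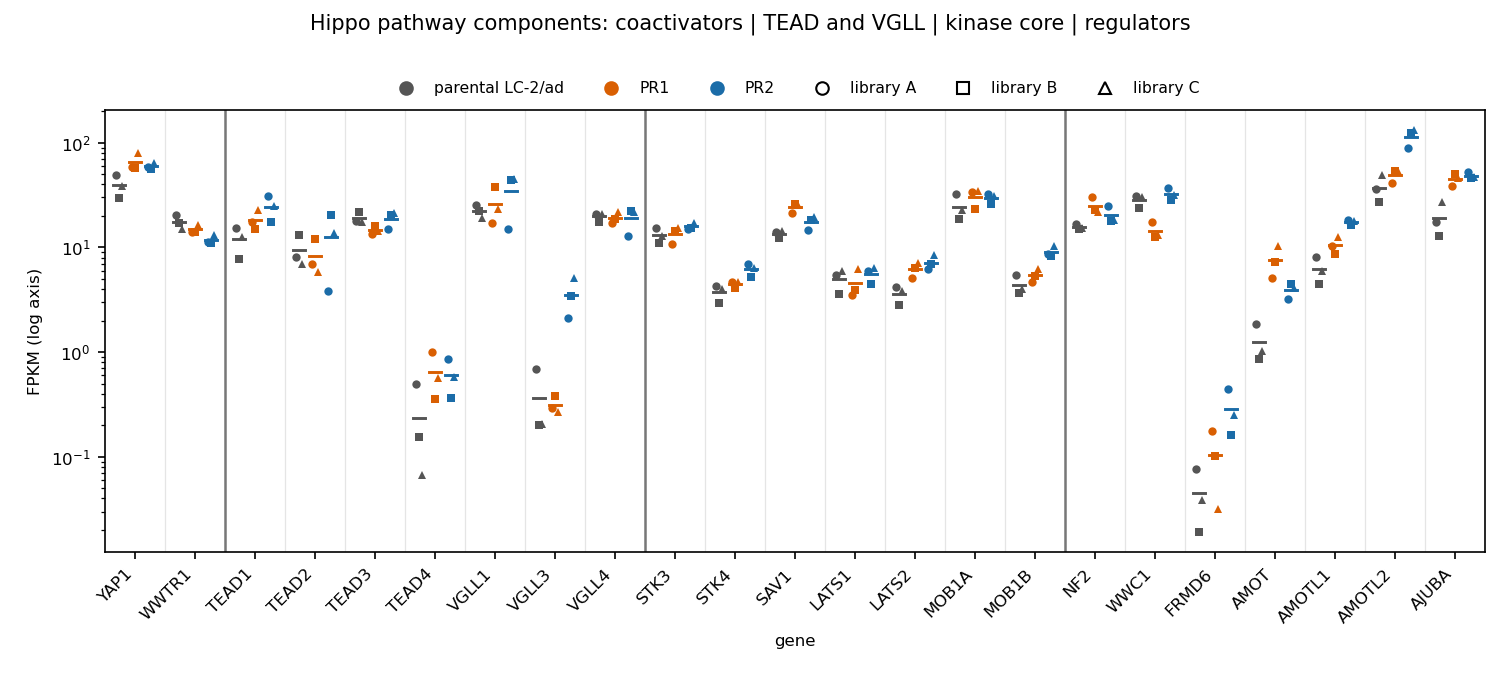
FPKM (log axis) of the 23 pathway components by role, with 1 point per library, colours for the groups, symbols for the letters and bars for the group means. AMOT is highest in PR1 (5.09 to 10.4 FPKM), VGLL3 and AMOTL2 are highest in PR2, and WWC1 is lowest in PR1.

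PR2 was compared with PR1 directly, both being grown in ponatinib, to ask where the derivatives differ. Of the 37 genes tested 9 were higher and 2 lower in PR2, a share of 29.7%, where 19.9% of all rows tested differed, 11% higher and 8.92% lower. Without VGLL3, which had to differ because it passed the filter only through PR2, 8 of 36 were higher. CTGF and NT5E were the genes lower in PR2, by log2 differences of −2.83 ± 0.73 and −1.39 ± 0.20 (limma adjusted p = 0.023 and 0.0012). The genes higher in PR2 were the targets CCDC80 (1.49 ± 0.31), CRIM1 (1.13 ± 0.20), NUAK2 (0.79 ± 0.16) and DOCK5 (0.56 ± 0.15), the regulators AMOTL2 (1.19 ± 0.23), WWC1 (1.12 ± 0.17) and AMOTL1 (0.70 ± 0.20), MOB1B (0.65 ± 0.17) and VGLL3 (1.74 ± 0.23), with limma adjusted p from 0.00077 for VGLL3 to 0.037 for AMOTL1. All 11 had groups that did not overlap. Over the 37 genes 12 were apart with PR2 higher and 5 with PR2 lower, against 38.7% of all rows tested, 20.4% higher and 18.2% lower.

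Members of 1 family were set side by side, with no test of the difference between them. Among the angiomotins AMOTL1 and AMOTL2 were higher in PR2, and the AMOT difference was −0.76 ± 0.24 (limma adjusted p = 0.053, and 0.046 with the letter as a replicate block). The ratio of AMOTL2 to AMOT FPKM within a library was 19.5 to 47.4 in parental cells, 5.11 to 8.08 in PR1 and 27.2 to 32.2 in PR2, so PR1 lay apart. Among the matricellular pair, CYR61 differed by 0.18 ± 0.41 between the derivatives (limma adjusted p = 0.81) and CTGF by −2.83. The CTGF to CYR61 ratio was 0.411 to 0.977 in parental cells, 0.676 to 1.36 in PR1 and 0.0648 to 0.158 in PR2, the lowest in every PR2 library. Other rises against parental cells were of like size in both, with differences between the derivatives of 0.37 ± 0.41 for ANKRD1, 0.04 ± 0.24 for MYOF, 0.07 ± 0.19 for PTPN14 and 0.11 ± 0.23 for AJUBA (limma adjusted p of 0.58 to 0.94), which does not show that they are equal.

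With the replicate block SAV1 (−0.47 ± 0.15 without it) and STK4 (0.39 ± 0.16) also differed between the derivatives (limma adjusted p = 0.028 and 0.032, against 0.060 and 0.13). The CTGF call was lost without PR1 C, PR2 A, PR2 B or the A libraries and with no filter on low rows (limma adjusted p of 0.058 to 0.085). The calls were also lost for MOB1B, AMOTL1 and DOCK5 with 1 library or all A libraries left out, the single ones being PR1 A, PR1 B, PR2 B and PR2 C for MOB1B, all PR1 and PR2 libraries but PR1 C for AMOTL1, and all but PR2 B for DOCK5 (limma adjusted p of 0.052 to 0.12).

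**Figure D3:**
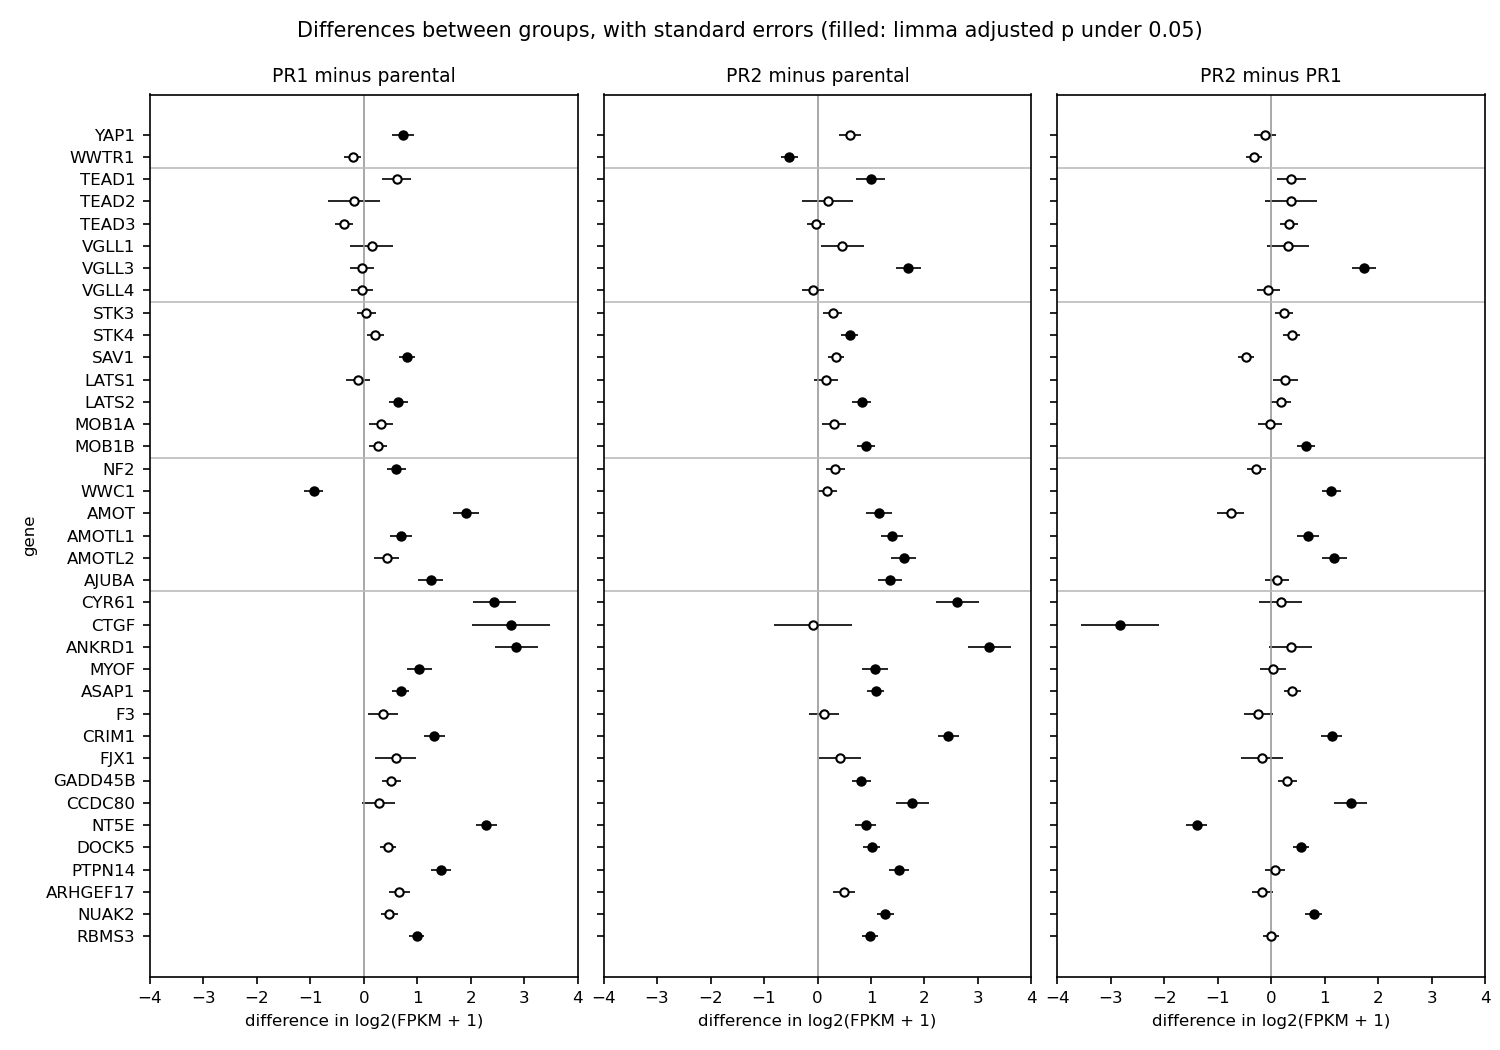
Differences in log2(FPKM + 1) for the 37 genes tested, with bars for standard errors and filled points for a limma adjusted p under 0.05. Targets lie to the right of 0 against parental cells except CTGF in PR2 (−0.08), and CTGF and NT5E lie to the left in PR2 minus PR1.

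**Figure D4:**
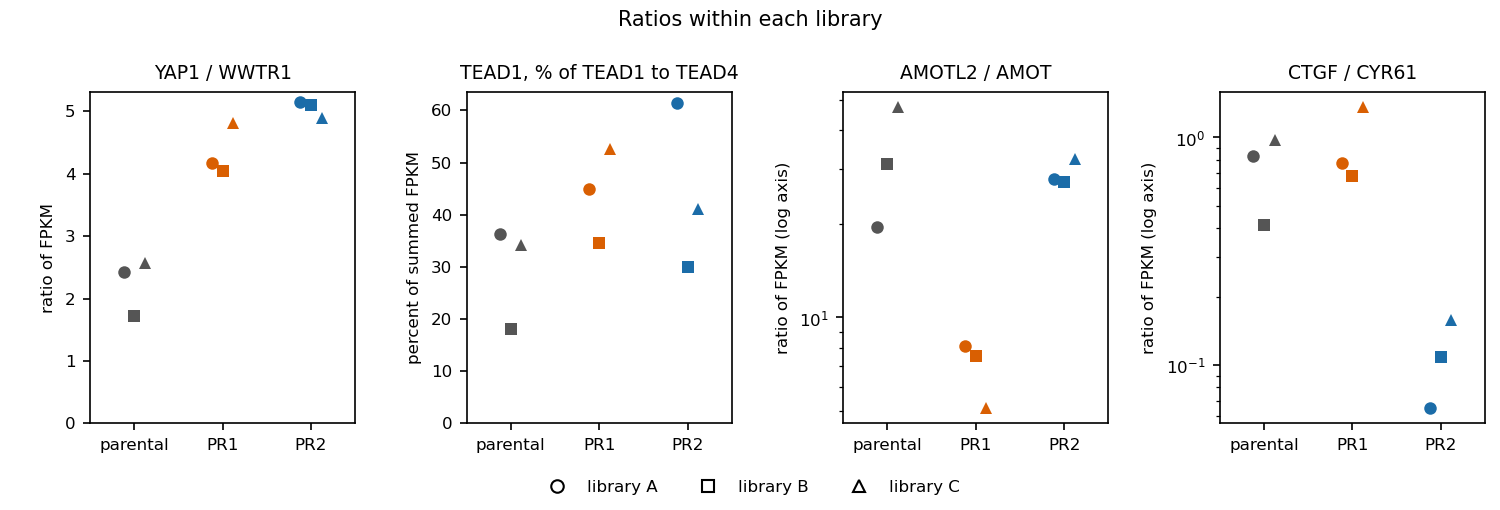
FPKM ratios and the TEAD1 share within each library, with 1 point per library and symbols for the letters. YAP1 to WWTR1 is 1.73 to 2.57 in parental cells and 4.04 or more in both derivatives, AMOTL2 to AMOT is lowest in PR1 and CTGF to CYR61 is lowest in PR2.

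The letters were also compared one at a time, with 1 library of each group per letter and so with no replicates. Of the 16 targets, 14 were higher in PR1 than in parental cells in the A libraries, 16 in B and 15 in C, with median log2 differences of 0.83, 1.01 and 0.92. Of all rows tested 54.9%, 54.1% and 51.4% were higher. In PR2 the counts were 14, 16 and 15 and the medians 1.06, 1.18 and 1.17, with 54.2%, 54.1% and 50.9% of all rows higher. The components moved less in the A libraries, with medians of 0.07, 0.43 and 0.29 in PR1 and 0.24, 0.66 and 0.70 in PR2 for A, B and C. Over all rows tested the medians within letters lay between 0.01 and 0.05 against parental cells. Parental B had the lowest mean log2 level of the targets, at 3.09, against 3.69 and 3.46 in parental A and C and 4.54 to 4.81 in the derivatives.

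Other genes of the pathway were read from a list of 50 regulators that held none of the genes above. Of 49 with a row of their own 42 were tested, of which 5 rose and 2 fell in PR1 and 11 rose and 2 fell in PR2, with median log2 differences of 0.15 and 0.34. That is 16.7% and 31.0% of those tested, beside 15.5% and 23.4% of all rows. Changes of at least 2-fold past the threshold made up 6.67% of all rows tested in PR1, 9.52% in PR2 and 7.48% in PR2 against PR1. WWC2, a relative of WWC1, rose in PR1 from 1.72 ± 0.42 to 6.09 ± 1.65 FPKM, by 1.37 ± 0.21 (limma adjusted p = 0.0020). In PR2 WWC2 stood at 4.17 ± 0.78 FPKM and rose by 0.93 ± 0.21 (limma adjusted p = 0.010). The polarity gene MPP5 rose by 1.12 ± 0.21 for PR1 and 1.32 ± 0.21 for PR2 (limma adjusted p = 0.0055 and 0.0014), and the protocadherin gene FAT1 by 1.09 ± 0.30 in PR2 (limma adjusted p = 0.026). The kinase gene TNIK was at 0.520, 0.530 and 0.292 FPKM in parental cells, 2.80, 1.67 and 1.85 in PR1 and 0.108 or less in PR2. TNIK was tested only because of its level in PR1, so that it had to differ there, and it is counted among the 5 rises. WTIP, a relative of AJUBA, was higher in PR2 than in PR1 by 1.25 ± 0.17 (limma adjusted p = 0.0009). It was under 1 FPKM in every PR1 library and in parental C, so it passed the filter only with its PR2 libraries. The p-value is therefore no support for the difference, and WTIP is counted among the 11 rises in PR2.

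Among further genes reported as induced by YAP1, 40 had a row of their own and 37 were tested. In PR1 11 rose and 3 fell, and in PR2 15 rose and 4 fell, with median log2 differences of 0.31 and 0.52. That is 37.8% and 51.4% of those tested, beside 15.5% and 23.4% of all rows, whose medians were 0.05 and 0.03. Of the 37, DAB2 and PMP22 were tested only because of 1 group each, PR2 and PR1. DAB2 therefore had to differ in PR2, and it is counted among the rises there and among the falls in PR1. PMP22 passed the threshold in neither derivative. DLC1 and SLIT2 passed the filter only through PR1 and PR2, so they had to differ from parental cells, and both are counted among the rises. Among the leading rises in PR1 were FSCN1 (3.33), THBS1 (2.27), GAS6 (2.12) and DLC1 (1.85), and in PR2 THBS1 (4.22), FSCN1 (3.82), GAS6 (3.64) and FSTL1 (2.84). NDRG1 and SGK1 fell in both derivatives (−1.75 and −1.70 in PR1, −1.55 and −1.65 in PR2), and ETV5 in PR2 (−2.71). The list mixes genes of the cell cycle, matrix and signalling that other pathways also induce.

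Another 4 genes are often grouped with these targets. AXL, a receptor tyrosine kinase, was at 3.36, 0.748 and 0.734 FPKM in parental cells, 53.8, 34.7 and 27.9 in PR1 and 106, 68.1 and 70.5 in PR2. TGFB2, a growth factor gene, rose in PR2 from 9.80 ± 6.28 to 32.5 ± 11.0 FPKM (1.73 ± 0.39, limma adjusted p = 0.011) and differed by 0.997 ± 0.39 in PR1 (limma adjusted p = 0.12). FOXF2, a forkhead factor gene, went from 1.45 ± 0.047 FPKM to 0.267 or less in every PR1 and PR2 library, but it was tested only because of its parental level, so that it had to differ. IGFBP3 overlapped between the groups (limma adjusted p = 0.18 and 0.86).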

How the data were processed

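RNA of 9 libraries (3 parental, 3 PR1 and 3 PR2) was analysed from the deposited FPKM values, which the authors made with TopHat2 2.0.14, Cufflinks 2.2.1 and Cuffdiff 2.2.1 on GRCh37 and hg19, per the submitters' processing notes. The header names no unit, and FPKM was inferred from these tools and the values. The annotation and the number of fragments were not given in the sources used here, so depth is known only relatively. The members and lists were chosen with earlier results of these data known. All members are reported, and of the other lists genes changed at least 2-fold, at most 5 per direction. Some genes that this rule names are not reported here.

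Rows at 1 FPKM in at least 3 libraries were fitted as log2(FPKM + 1) in R 4.3.3 with limma 3.58.1 (1 mean per group, intensity trend, two-sided, Benjamini-Hochberg adjustment over all 12011 rows tested), after the fit was tested on simulated data. An exact permutation test of 3 against 3 libraries cannot go below p = 0.1 and was not used. Alternatives were a pseudocount of 0.1, other filters, 2 rescalings, only the groups compared, the letter as a block and left-out libraries. Deviations from group means correlated between same-lettered libraries in PR1 and parental cells (0.31, 0.48 and 0.16) and in PR2 and PR1 (0.53, 0.54 and 0.25). The letters were marked as pairs there. They were not in PR2 and parental cells (0.30, 0.42 and 0.014). The main fit had no block in any comparison, so its p-values leave this pairing out, and the block was an alternative only.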

Additional observations from a re-analysis of the deposited data

Results flagged for a closer look

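The effects of the derivatives against parental cells differed, by the direct limma test of PR2 minus PR1, for 11 genes of the set, out of 37 tested. That is 29.7%, beside 19.9% of all rows tested. On the log2 scale CTGF (−2.83) and NT5E (−1.39) were lower in PR2. VGLL3 (1.74), CCDC80 (1.49), AMOTL2 (1.19), CRIM1 (1.13), WWC1 (1.12), NUAK2 (0.79), AMOTL1 (0.70), MOB1B (0.65) and DOCK5 (0.56) were higher. VGLL3 passed the filter only through PR2, so it had to differ. The calls for CTGF, AMOTL1, MOB1B and DOCK5 were lost under some alternatives.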

How the results depend on the processing

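No change of a gene of the set past the threshold turned direction under any alternative in which the gene was tested. In PR1 against parental cells 10 of the 17 calls held under all of them, in PR2 against parental cells 19 of 22, and in PR2 against PR1 7 of 11. Leaving out 1 library gave 10 to 17 calls in PR1, and of the 3 comparisons this was the one whose count moved by over 1.5 times. With the letter as a replicate block the counts were 21 in PR1, 24 in PR2 and 14 in PR2 against PR1, which included every call made without it. Without the 3 A libraries they were 19, 22 and 8. In PR2 against parental cells, where the letters were not marked as pairs, YAP1 and ARHGEF17 passed with the block (limma adjusted p = 0.024 and 0.016). Over all rows tested, the counts moved by over 1.5 times with the filter at 5 FPKM (1207, 1811 and 1573 against 1866, 2814 and 2395), with the block in PR1 (3088) and PR2 against PR1 (3789), and without some single libraries. The filter at 5 FPKM tested 8947 rows in place of 12011, so its counts are out of fewer rows. No scaling moved the median of all rows by as much as 0.1. For low genes such as TEAD4, FRMD6 and VGLL3 the fragments behind a value are few and their number is unknown.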
